A study of Drosophila melanogaster with 2 samples.

Results

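The Polycomb group genes examined here are ph-p, ph-d, Psc, Su(z)2, Pc, Sce, E(z), Su(z)12, esc and pho, 10 of the 13945 protein-coding genes on the 6 main chromosome arms of the Drosophila melanogaster assembly dm6. They were chosen by name, and a peak was given to a gene when its summit lay in the gene body or within 1000 bp of any of the gene's transcription start sites (TSSs). The data are ChIP-seq peaks of CG9948, an uncharacterized fly protein, in whole pupae aged 24 h. The flies carried a transgene for CG9948 with GFP at its C terminus, and an anti-GFP antibody was used to precipitate chromatin. The 2 biological replicates, which the labels number 1 and 3, make up 1 group, so no condition was compared, and a whole pupa mixes all its cell types. Peak lists of 30000 entries each were deposited for replicate 1, replicate 3 and their pooled reads. An optimal IDR set of 7637 peaks came with them, called IDR peaks below. IDR, the irreproducible discovery rate, is meant to keep peaks of similar rank in replicates. Membership does not show this for each peak: 91.1% had a counterpart in both replicate lists, by a rule given below. Each peak carries a signal that the authors computed, on a scale the files do not name, so signals and ranks are read within a list. The lists hold no read counts, so the depth is unknown.

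Polycomb group proteins keep genes silent through cell divisions and are best known in the fly for holding Hox genes off outside their domains. Polycomb repressive complex 1 (PRC1) holds Polyhomeotic (ph-p and ph-d), the related RING finger proteins Psc and Su(z)2, the chromodomain protein Pc, which binds trimethylated lysine 27 of histone H3, and Sce, a ubiquitin ligase for histone H2A. PRC2 places the methyl marks on that lysine through its enzyme E(z), with Su(z)12 and esc as partners, and Pho binds DNA at Polycomb response elements. The measurements below are of CG9948 at the genes that code for these proteins, and they do not measure Polycomb proteins on chromatin.

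CG9948 peaks were strong at the tandem genes ph-p and ph-d, at Psc and at E(z), weak at Su(z)12, and not in the IDR set at the other 5 genes. IDR summits were found at 5 of the 10 genes. Of all protein-coding genes, 26.0% had one by the same rule. These 10 genes are long, with a median of 8.36 kb against 2.17 kb for all protein-coding genes, and long genes more often hold a peak: of 4 equal classes by length, 49.3% of the longest genes did, 26.8% and 17.9% of the next, and 10.1% of the shortest. Averaged over the length classes of the 10 genes, 7 of which are in the longest, the share was 41.6%. The count of 5 is thus near the background for genes of these lengths. The same 5 genes had summits in all 4 lists, as did 3190 of the 3628 protein-coding genes with an IDR summit (22.9% of all genes). The IDR entries at these 5 genes are also entries of the pooled list, so the 4 lists are not separate observations. Summits of the pooled list were found at 7 of the 10 genes (50% of all genes), of replicate 1 at 8 (49.6%) and of replicate 3 at 7 (52.6%). Within 500 bp of a TSS, IDR summits were again found at 5 of the 10, against 18.0% of all genes. Apart from the IDR share, the shares of all genes given here were not split by length.

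The 5 genes held 11 IDR summits. Of the 10 genes, 3 held 2 or more (8.19% of all genes) and 2 held 3 or more (4.48%). These shares are over genes of all lengths and were not split by length, although long genes can hold more summits. At ph-d, 2 of the summits share 1 interval. Of the 11 summits, 7 lay within 500 bp of a TSS of the gene and 3 more than 1000 bp away. In the annotation 6 were intronic, 2 were in 5′ untranslated exons and 3 were outside the gene body, and 0 were in coding exons. The nearest TSS was that of the Polycomb gene itself for all 11. Each of the 11 had a counterpart in replicate 1 and in replicate 3, sharing 50% or more of the shorter interval, as did 91.1% of the 7637 IDR peaks, a set that was itself selected on both replicates.

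**Figure D1:**
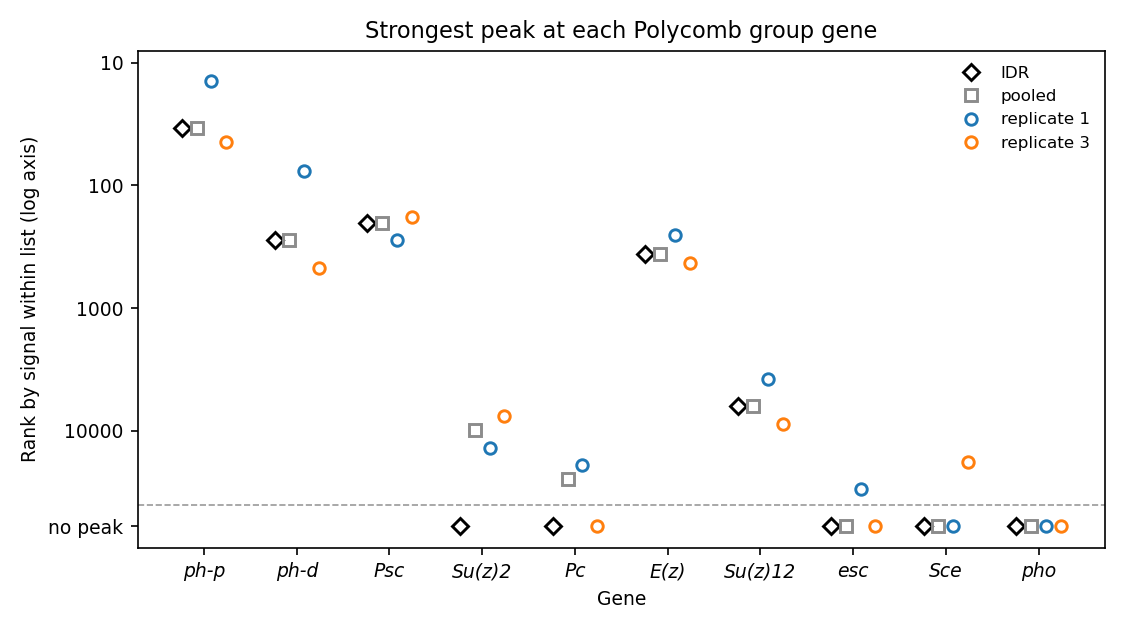
Rank by signal of the strongest peak at each gene within each list (log axis, strongest at the top, symbols under the dashed line mark genes with no peak in that list). The strongest peaks at ph-p, ph-d, Psc and E(z) ranked between 14 and 475 in every list, that at Su(z)12 between 3784 and 8866, and pho had none.

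Summit sequences are shown first, for 4 of the 5 genes with IDR peaks (none is shown for Psc), because A and T content is a property that the choice of genes did not use. Each line gives the reference plus strand, 50 bases to each side of the IDR summit, with runs of 6 or more A or T in capitals. The E(z) stretch stops short at the edge of an untranslated exon. The sequences are from the RefSeq release 6 genome, in dm6 coordinates.
ph-p strongest peak (chrX:2137284-2137384): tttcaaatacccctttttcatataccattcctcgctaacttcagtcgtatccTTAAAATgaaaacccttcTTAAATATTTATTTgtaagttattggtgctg
ph-d strongest peak (chrX:2124059-2124159): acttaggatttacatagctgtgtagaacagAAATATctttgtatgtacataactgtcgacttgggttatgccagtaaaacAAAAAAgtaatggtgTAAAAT
E(z) (chr3L:10637988-10638041): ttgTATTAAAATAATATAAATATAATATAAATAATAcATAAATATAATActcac
Su(z)12 (chr3L:19923468-19923568): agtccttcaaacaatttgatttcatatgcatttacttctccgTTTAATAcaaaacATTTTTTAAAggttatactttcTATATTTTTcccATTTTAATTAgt
Within the printed bases, the longest run of A or T is 14 in the ph-p window, 6 in the ph-d window, 33 at E(z) and 10 at Su(z)12. The ph-d value is cut by the window's edge, because the run that ends the window continues beyond it. A + T was 100% in windows of 51 bp centred 70 and 80 bp to the right of that summit.

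Of the PRC1 genes, ph-p carried the strongest peaks. ph-p and ph-d are tandem copies, transcribed in the same direction, and code for nearly alike SAM domain proteins of PRC1. The ph-p gene (FBgn0004861, X:2126210 to 2138371, minus strand, with 3 distinct TSSs) held 4 IDR summits. Of protein-coding genes of all lengths, 2.97% held 4 or more. The strongest summit, at X:2137334, had an IDR signal of 2846 and rank 34 of 7637. The same peak had a signal of 1223 in replicate 1 and 1645 in replicate 3, with ranks 14 and 44 of 30000. It lay 479 bp upstream of the middle TSS and in an intron of the transcript that starts farthest upstream. A neighbouring summit, at X:2137915 in the 5′ untranslated exon of that transcript, had an IDR signal of 2448 and rank 50. Its signals of 943 and 1545 put it at rank 40 in replicate 1 and 58 in replicate 3. Both ph-p peaks were wide, 728 and 698 bp against a median of 322 bp for IDR peaks.

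Weaker ph-p summits lay in introns, downstream of all its TSSs. The one at X:2135385, 1.24 kb from the nearest TSS, had an IDR signal of 747 and replicate signals of 225 and 524. The one at X:2134449, 2.17 kb from the nearest TSS, had an IDR signal of 649 and replicate signals of 188 and 466. All 4 ph-p summits were thus above the median signal of IDR peaks, which was 311.

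By the strength of its strongest promoter peak (a summit within 500 bp of a TSS), ph-p stood at place 27 of the 2515 protein-coding genes that had one. The genes on either side were CG8320 and Pex11ab, which shared a peak with a signal of 2918, then C1GalTA with 2813 and cu with 2793. Their replicate signals were 1205 and 1711 for the shared peak, 913 and 1904 at C1GalTA and 1044 and 1748 at cu, in the order of replicates 1 and 3. Replicate 1 was thus higher at ph-p than at any of these 4 genes, while replicate 3 was lower.

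At ph-d the main peak was the widest of all IDR peaks. The gene (FBgn0004860, X:2115727 to 2123286, minus strand, 2 TSSs) had 3 IDR summits by the rule. The peak at X:2123317 to 2124665 spans 1349 bp of the DNA between both copies, and it is listed with 3 summits. Of these the strongest was at X:2124109, 823 bp upstream of the more upstream ph-d TSS, with an IDR signal of 1462 and rank 281. Replicate 1 gave a signal of 754 and rank 76 there, and replicate 3 a signal of 784 and rank 475, with its summit 108 bp away. The weakest, at X:2123527 and 241 bp upstream of the TSS, had an IDR signal of 205, and 70.9 and 185 in the replicates. The remaining summit of the peak, at X:2124337 with a signal of 364, lay 1051 bp from the TSS, just outside the window. A further summit, at X:2122157 in the first ph-d intron, lay 365 bp upstream of the other ph-d TSS. It had an IDR signal of 406, with 149 in replicate 1 and 261 in replicate 3. Over the whole pair, with 1000 bp added at both ends, 8 IDR summits fell in 24.6 kb.

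The upstream peaks of both copies lie in DNA that the copies share only in part. An alignment of the ph-d region to the ph-p region gave 8 blocks in the same order, the longest 3999 bp at 94.4% identity in the transcribed part, which held 0 IDR summits. From the ph-d start site upstream, blocks of 519, 115, 85 and 335 bp aligned at 91.3%, 84.3%, 80.0% and 83.0%, followed by one of 24 bp. The ph-p summit at X:2137334 fell between those of 519 and 115 bp, in a segment of 211 bp where ph-d has 18 bp. The ph-p summit at X:2137915 and the ph-d summit at X:2124109 fell between those of 85 and 335 bp, in segments of 216 and 311 bp that could not be aligned to each other by these settings. The replicate summits of these 3 peaks fell in the same segments. A + T made up 63.0% of the 211 bp segment, 69.0% of the 216 bp segment and 72.3% of the 311 bp segment. In the aligned blocks of 85 to 519 bp around them A + T was 46.9% to 58.9% over both copies, lowest in the 519 bp block and highest in the 335 bp block, which borders the segments of 216 and 311 bp. Of the 8 IDR summits over the whole pair, 6 lay outside the aligned blocks, which leave out 57.0% of its bases. With a more sensitive alignment, chosen after the data were seen, 6 of 8 lay outside, against 52.7% of the bases. The summits inside were those at X:2123527 and X:2124337, both in the wide ph-d peak. Reads from both copies could be confused where the copies are identical. Of the 50-base words in the ph-p peak at X:2137334, 25 of 679 occur more than once on the 6 chromosomes, as do 25 of the 1300 in the wide ph-d peak, and 0 in the other peaks at the 5 genes. Read length and mapping rule were not given in the sources used here.

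**Figure D2:**
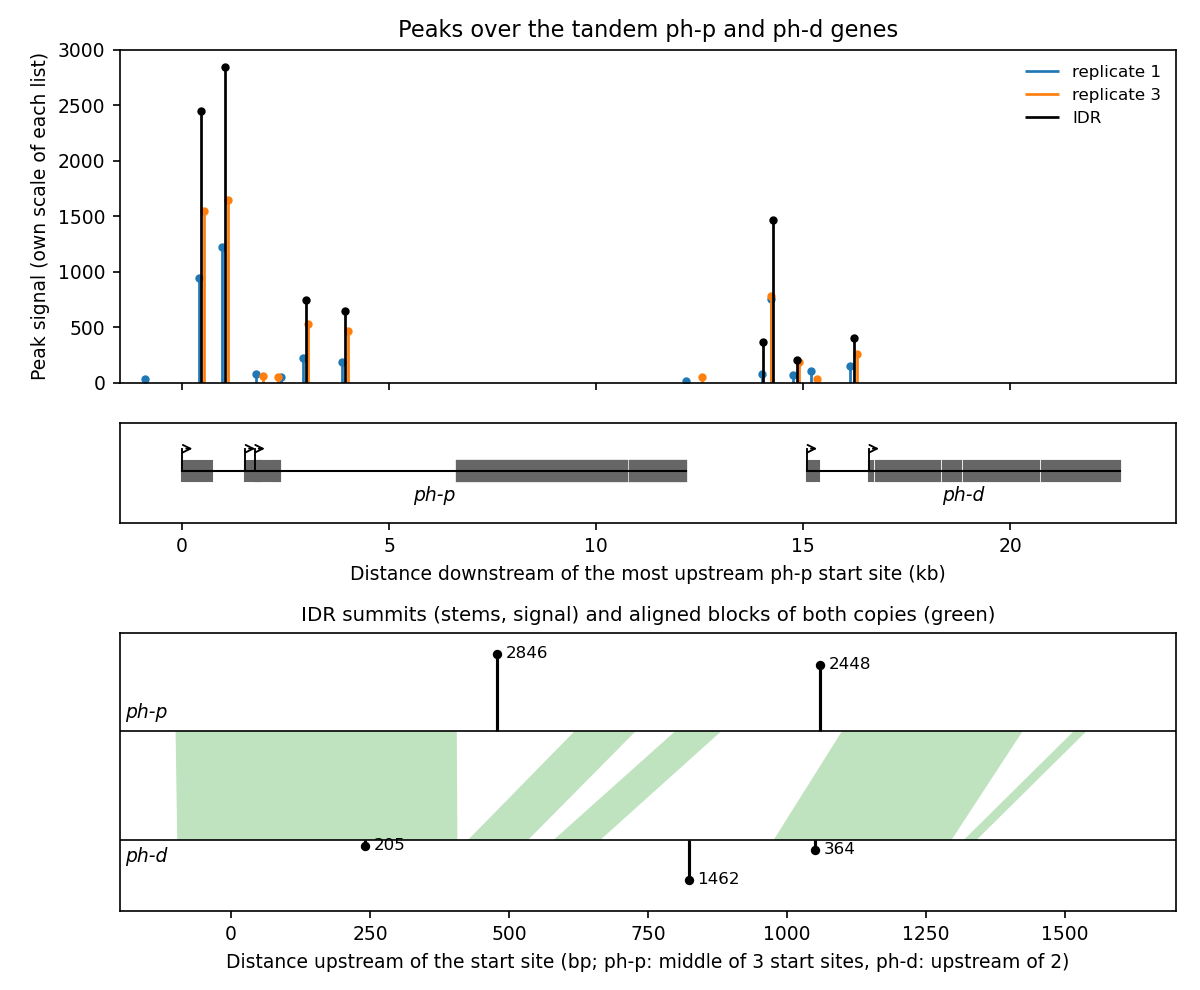
Upper panels: signal of each peak (stems; own scale of each list) against the distance downstream of the most upstream ph-p start site (kb), over exons (boxes) and start sites (arrows). Lower panel: IDR summits with their signals upstream of the ph-p (top) and ph-d (bottom) start sites in bp, with aligned blocks joined in green; the summits with signals 2846, 2448 and 1462 stand between blocks, and those with 205 and 364 within them.

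The weakest ph-d summit, at X:2123527, is the one given to a gene by the rule that lay inside an aligned block. It is printed beside its counterpart in ph-p because nearly the same sequence held a summit in one copy and not in the other, with mismatches in capitals on the plus strand.
ph-d (chrX:2123477-2123577): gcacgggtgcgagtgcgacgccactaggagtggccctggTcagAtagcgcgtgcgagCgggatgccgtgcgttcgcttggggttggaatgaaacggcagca
ph-p (chrX:2137043-2137143): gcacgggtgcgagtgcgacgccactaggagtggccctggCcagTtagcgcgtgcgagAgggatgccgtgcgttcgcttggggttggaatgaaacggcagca
These windows match at 98 of 101 positions. The ph-d stretch held 1 summit in each of the 4 lists, where the IDR and pooled summits are the same entry. The ph-p stretch held 0 in each, and it lies inside the interval of the ph-p peak at X:2136904 to 2137631. The summit of that peak has an IDR signal of 2846, against 205 for the ph-d summit. Whether a weak summit could be called beside such a strong one was not tested. The difference between the copies was seen after the summits were known, and no test was made of it.

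Psc carried a strong peak inside the gene and a weak one at its start. Psc codes for a subunit that pairs with the ubiquitin ligase Sce. The gene (FBgn0005624, 2R:12965997 to 12980994, minus strand) held 2 IDR summits. The strong one, at 2R:12975583 in an intron 5.08 kb downstream of the nearest TSS, had an IDR signal of 1610 and rank 203. It had a signal of 491 and rank 280 in replicate 1, and 1116 and rank 180 in replicate 3. The other, at 2R:12980842 in the 5′ untranslated exon and 152 bp from a TSS, had an IDR signal of 233, with 43.0 in replicate 1 (rank 8157) and 182 in replicate 3 (rank 4523). Its replicates thus differed more in rank than those of the intronic peak.

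Su(z)2, the neighbour and relative of Psc, had no IDR summit. The gene (FBgn0265623, 2R:12996501 to 13007911, plus strand) had 9 summits in the pooled list, 5 in replicate 1 and 9 in replicate 3. The strongest had a pooled signal of 111 (rank 9900), and the highest in the replicates were 26.4 (rank 13897) and 107 (rank 7597). The positions near 2R:12997854 and 2R:12998988, both intronic, had summits in the pooled list and in both replicates, with pooled signals of 87.5 and 85.2. At the second position the replicate 1 signal was 16.9 (rank 28390), near the list's lowest value of 16.3, and the replicate 3 signal was 60.8 (rank 12989). Of protein-coding genes, 24.0% likewise had a summit in the pooled list and none in the IDR set. The DNA between Psc and Su(z)2 spans 15.5 kb and held 3 IDR summits. The strongest of them, at 2R:12985221, had a signal of 2007 and rank 96, above any peak within Psc, and lay 4.23 kb from the Psc gene and 146 bp from the TSS of the noncoding gene lncRNA:CR44339. An IDR summit with a signal of 197 lay 434 bp beyond the 3′ end of Su(z)2, outside the rule.

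**Figure D3:**
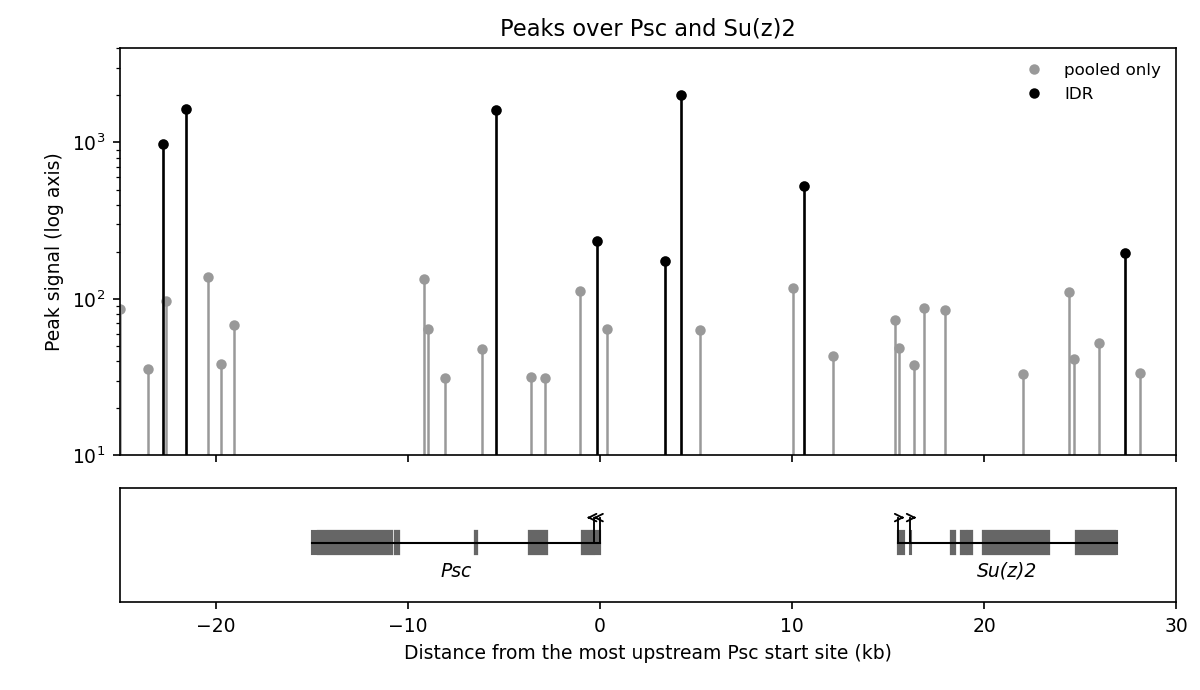
Signal of pooled peaks (log axis; black, peaks also in the IDR set; grey, pooled list only) by distance from the most upstream Psc start site (kb), over the exons and start sites of Psc and Su(z)2. The intronic Psc peak (1610) and the intergenic peak (2007) exceed every pooled peak over Su(z)2, where the highest is 111.

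Pc and Sce, which code for the chromodomain subunit and the ubiquitin ligase of PRC1, had no IDR summit. Pc (FBgn0003042, 3L:21306138 to 21318020) had 3 summits in the pooled list with signals of 32.2 to 39.1, where the list's lowest value is 31.0. It had 1 in replicate 1 (signal 21.6, rank 19025) and 0 in replicate 3. A strong IDR peak, at 3L:21304563 with a signal of 2313 and rank 56, lay 1.58 kb beyond the 3′ end of Pc and 95 bp from a TSS of CG11309. Sce (FBgn0003330, 3R:27680431 to 27682029) had a single summit, in replicate 3, with a signal of 42.8 and rank 17841. The pooled Pc summits were thus near the floor of their list, while the replicate summits of Pc and Sce were below the median signal of their lists and above the lowest values, which were 16.3 in replicate 1 and 22.9 in replicate 3.

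Of the PRC2 genes, E(z) carried a strong peak. E(z) codes for the methyltransferase of the complex. In the gene (FBgn0000629, 3L:10634575 to 10638130, minus strand, 2 TSSs) each of the 4 lists held 1 summit. The IDR summit, at 3L:10638038, had a signal of 1319 and rank 361. Replicate 1 gave 512 and rank 253, and replicate 3 gave 819 and rank 431, with summits 22 and 21 bp away. The summit lay in an intron 92 bp downstream of the upstream TSS of E(z), and 108 bp from the TSS of the divergently transcribed gene Cnep1r2, so the peak could be counted for either gene.

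Su(z)12 codes for a PRC2 subunit needed for the activity of E(z). The gene (FBgn0020887, 3L:19918242 to 19923462) had an IDR summit at 3L:19923518, 56 bp upstream of its TSS and 153 bp from the TSS of the divergent gene Pfdn6. The signal was 188, rank 6241 of 7637, where the lowest IDR signal is 150. The replicates had signals of 98.7 (rank 3784) and 91.1 (rank 8866), with summits 39 and 88 bp away. Replicate 3 had a further summit at 3L:19923637, with a signal of 55.6 (rank 14056), 34 bp from the TSS of Pfdn6. The IDR peak could thus be counted for either gene. Of the genes with an IDR summit, 87.1% had a stronger one than Su(z)12, against 1.13% for ph-p, 8.05% for ph-d, 5.95% for Psc and 9.98% for E(z).

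esc, the WD40 partner in PRC2 (FBgn0000588, 2L:11827204 to 11829405), had 1 summit in replicate 1 alone, with a signal of 16.5 and rank 29624 of 30000. pho (FBgn0002521, 4:1172469 to 1181628), which codes for the DNA-binding protein, had 0 summits in all 4 lists, as did 30.2% of protein-coding genes. It is the single gene of the 10 on chromosome 4, where 16.2% of 80 genes had an IDR summit. On that chromosome the replicates differed: 3.75% of the genes had a summit in replicate 1 and 68.8% in replicate 3, with 7 and 196 peaks. The part of this difference in the values at pho was not tested.

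Summits at the Polycomb group genes were richer in A + T than their flanks, as other IDR summits were. Within 50 bp of the summit, the median A + T content of the 11 peaks was 68.3%, against 51.0% in flanks centred 200 bp away. Over all 7637 IDR peaks the medians were 71.3% and 54.9%. The difference between summit and flanks, taken per peak, had a median of 15.4 percentage points at the 11 peaks and 15.4 over all. That match held for this window alone of those tried: within 25 bp of the summit the medians were 10.7 and 16.5, and within 100 bp 10.7 and 12.7. With the summits of 1 replicate the median at Polycomb group genes was 10.4 to 10.7, and no value over all peaks is given for such summits. The summit was richer in A + T than its flanks in 10 of the 11, against 90.2% of all IDR peaks. The highest values were 83.2% at E(z) and 80.2% at the ph-p summit in the untranslated exon.

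Of the 11 summits, the ph-d summit printed above and the Psc start site summit had low A + T content. A + T made up 34.7% of the ph-d window, and 0.0262% of IDR summits had a lower value. At the Psc start site it was 42.6%, with 0.419% of IDR summits below. Of all IDR summits, 150 (1.96%) had less than 50% A + T. Both had low IDR ranks, 5774 and 5123.

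**Figure D4:**
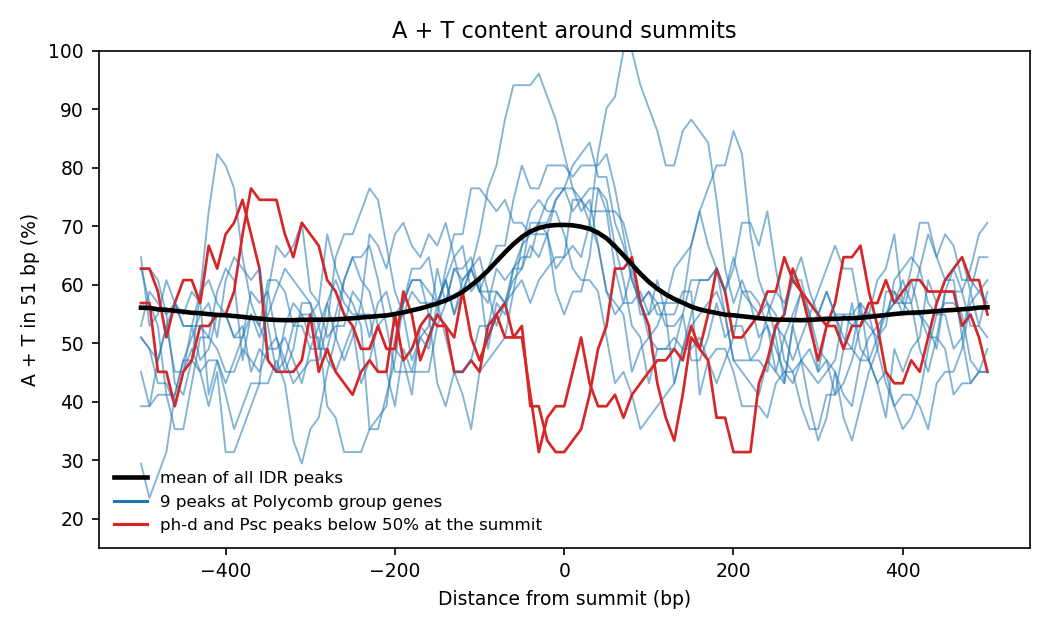
A + T content in running windows of 51 bp (%) by distance from the summit (bp), for the 11 IDR peaks at Polycomb group genes (thin lines) and the mean of all 7637 IDR peaks (black). The mean is highest at the summit; the ph-d and Psc start site peaks, with 34.7% and 42.6% within 50 bp of the summit, are drawn in red.

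Short motifs were searched on both strands within 50 bp of the 11 summits. CACTG was found at 2 (the ph-p intron summit at X:2135385 and the Psc start site), against 13.6% of all IDR summits. GCCAT, the core of Pho sites, was found at 0, against 10.9%. GAGAG, bound by the GAGA factor, was found at 1 (the Psc start site, 7.82% of all), and CGATA, shared by BEAF-32 sites and the DNA replication-related element, at 1 (the ph-p summit at X:2137915, 10.4% of all). TATCGATA, which contains CGATA, GGTCACACT and AAAAAAAA were found at 0, against 0.314%, 0.196% and 10.1%. Within 100 bp, GCCAT was found at 3 of 11 (22.6% of all), GAGAG at 4 (19.2%), CACTG at 7 (41.7%), and CGATA and AAAAAAAA at 1 each (20.6% and 19.3%). Over whole peaks, CACTG was found in 9 of 11 (57.5% of all IDR peaks), GCCAT in 8 (35.6%), GAGAG in 8 (32.1%), AAAAAAAA in 4 (24.2%), CGATA in 2 (29.7%), GGTCACACT in 1 (1.03%) and TATCGATA in 0 (1.91%). The ph-p and ph-d peaks are wider than most, and 2 of the 11 summits share 1 interval, so these counts are not like for like. A match is a run of letters and not evidence of binding.

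Other Polycomb genes, from a list of 17, had IDR summits at 6 (35.3% of the list, against 26.0% of all genes). The genes of this list are longer as well, with a median of 4.565 kb against 2.17 kb for all genes. The strongest was in Kdm2, which codes for a histone demethylase found with PRC1 subunits, with a signal of 1084 in an intron 4.25 kb from a TSS (replicates 323 and 767). The zinc finger gene jing followed with 985 (382 and 605), in a gene of 120 kb that held 14 IDR summits. That summit lay in an intron 18.6 kb from a jing TSS, and the nearest TSS of any gene was that of lncRNA:CR45127. E(Pc) had a peak with a signal of 442, weak in replicate 1 (50.9, against 395 in replicate 3). Sfmbt, the partner of Pho, had one with 314 (72.5 and 207), for which the nearest TSS was that of CG5439. All of these were below the strongest peaks at ph-p, ph-d, Psc and E(z).

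Genes for proteins known to act at Polycomb response elements had IDR summits at 6 of 9 (66.7%, against 26.0% of all genes). These genes too are long, with a median of 7.01 kb, and the peak of Trl was known when the list was made. The GAGA factor gene Trl had the strongest, in an intron 1.54 kb from a TSS, with a signal of 3268 and rank 19 (replicates 1256 and 2030). Dsp1, which codes for an HMG box protein, had one with 1607 (519 and 1087), nearest to the TSS of CG9921, and Adf1 one with 1605 (671 and 960). The genes Spps, cg and z had 0 IDR summits.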

How the data were processed

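Anti-GFP ChIP-seq of CG9948-GFP in whole pupae (24 h) gave 2 biological replicates in 1 group. Per the deposited readme texts, the 4 peak lists are narrowPeak files in dm6 coordinates. Alignments of a replicate, with a control, gave its own list; both sets of alignments gave the pooled list; and the IDR list came from these 3. Aligner, caller and cutoffs: not given in the sources used here. Peak signal is the authors' deposited value, read within a list. No use was made of the deposited −log10 q-value, and the other deposited value used is the summit, an offset from the peak start. Read depth is unknown, and the control was not analysed here.

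Genes and TSSs were from Ensembl release 115 and sequence from RefSeq release 6, both in dm6 coordinates, written 1-based. The rule gave every summit in the gene body or within 1000 bp of a TSS to the gene. Neighbouring genes can share a peak. The gene length classes divide the protein-coding genes into 4 equal parts. The ph copies were aligned with BLAST 2.17.0, and the printed pair with Biopython 1.88. Python 3.11.15, NumPy 2.4.6, pandas 2.3.3 and matplotlib 3.10.9 were used. The step that gives summits to genes was tested on simulated summits. No significance test was made: there is 1 group, and counts are read against all protein-coding genes or all IDR peaks.

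The genes, lists, motifs and alternatives were chosen with earlier results of these data known. Named are all 10 genes with every IDR peak, the 4 other Polycomb genes and 3 response element genes with the strongest peaks, and the 4 genes next to ph-p by strongest promoter peak. Genes without an IDR peak, and any gene named for its position beside a peak, are given as well.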

Additional observations from a re-analysis of the deposited data

How the results depend on the processing

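The count of 5 genes with an IDR summit stayed at 5 with 500 and 2000 bp windows, with TSS windows alone, with any overlap, with protein-coding transcripts alone, and was 4 in the strongest 3818 IDR peaks, where Su(z)12 dropped out. Leaving out a replicate meant taking the strongest 7637 peaks of the other replicate's list in place of the IDR set. It gave 5 genes in each case, but without replicate 1 Su(z)12 was replaced by Su(z)2. The Su(z)2 peak in replicate 3 ranks 7597 of the 7637 strongest. Of the 11 peaks, 7 overlapped both replicate lists when 50% of both peaks was required (68.7% of all IDR peaks). The median rank of the strongest peaks (281) was 253 to 431 when either replicate was left out, and 429 in replicate 3 with overlapping peaks merged. The median A + T difference of 15.4 points was 10.7 within 25 bp and 10.7 within 100 bp of the summit, against 16.5 and 12.7 over all IDR peaks. With the summits of 1 replicate it was 10.4 to 10.7, with no value over all peaks to set beside it. The cause of these shifts was not tested. Matches summed over the 7 motifs were 4 within 50 bp, 16 within 100 bp and 32 in whole peaks, as longer windows hold more letters. The counts in the lists of 17 and 9 genes stayed within 1.5 times of their values in all 8 alternatives. No paired analysis was possible because there is 1 group. Depth cannot be read from peak lists, so a gene with no peak may hold one below the lists' floor.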
